A study of Amphimedon queenslandica and Mnemiopsis leidyi and Nematostella vectensis with 36 samples.

Results

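The transcription factor YY1 of the marine sponge Amphimedon queenslandica was tested in the study as a full length protein and as its isolated DNA binding domain, each on amplified and on native sponge DNA. The peaks of these 4 libraries are described here by whether the other construct had a peak at the same place on the same kind of DNA. A peak was called shared when it overlapped a peak of the other construct by at least 1 bp on the same contig, and otherwise full length only or binding domain only. The 4 YY1 lists held 37893 of the 120443 peaks in the 16 peak lists of the series. The series has 36 samples in all, and the others measured methylation, hydroxymethylation or the empty HaloTag.

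YY1 is a zinc finger protein known from mammals, where it can act as an activator or a repressor of transcription, depending on the gene and its partners. Its zinc fingers contact the DNA, and the remainder of the mammalian protein carries the regions that recruit other proteins. In mammals, methylation of the CpG inside the YY1 motif is known to weaken binding. An isolated binding domain therefore keeps the part of the protein that touches DNA and lacks the rest. These points are background from mammals and were not tested in the sponge here.

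In each library the protein was made by in vitro translation as a fusion to the HaloTag, which binds covalently to a ligand on a support and so allows the fusion to be pulled out. The fusion was incubated with adapter-ligated genomic DNA of swimming larvae at 0 h, sheared to a mean of 200 bp, and the DNA it held was sequenced after 20 cycles of PCR. In the amplified DNA the ligated fragments had been copied by 11 cycles of PCR before the incubation (ampDAP-seq), which leaves copies without cytosine methylation. The native DNA went into the incubation uncopied and kept its methylation (DAP-seq). All 4 groups thus share the DNA source, the tag and the purification, and differ in construct and in the kind of DNA. The assay uses naked DNA in a test tube, without chromatin, cofactors or other factors of the larva. Each group was 1 library, so no difference below could be set against replicate error, and the values are described without a test. Intervals in parentheses are 95% Wilson intervals unless another kind is named. They cover counting error only, and PCR reads without molecular identifiers are not independent molecules.

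Depth was similar in the 4 libraries. The full length protein had 2842290 usable fragments on amplified DNA and the binding domain 2538983, against an empty HaloTag control of 2865511. The native libraries had 2449481 usable fragments for full length YY1 and 2306647 for its binding domain, against a control of 2626764. On each kind of DNA both constructs shared 1 control library. Fold enrichment and −log10 q are the authors' values for each peak and serve here to describe, rank or filter peaks within a list. They are not on a common scale between lists.

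The full length list lay largely inside the binding domain list on amplified DNA, and less so on native DNA. On amplified DNA the full length protein had 1606 peaks and the binding domain 18619. Of the full length peaks, 1395 were shared, which is 86.9% (85.1 to 88.4), and 211 were full length only. Of the binding domain peaks, 1385 were shared, which is 7.44% (7.07 to 7.82), and 17234 were binding domain only. The native lists held 4528 full length and 13140 binding domain peaks. There, 3139 full length peaks were shared, or 69.3% (68.0 to 70.7), and 1389 were full length only. Among the binding domain peaks on native DNA, 3129 were shared, or 23.8% (23.1 to 24.5), and 10011 were binding domain only. The number of full length peaks over binding domain peaks was 0.0863 on amplified DNA and 0.345 on native DNA.

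**Figure D1:**
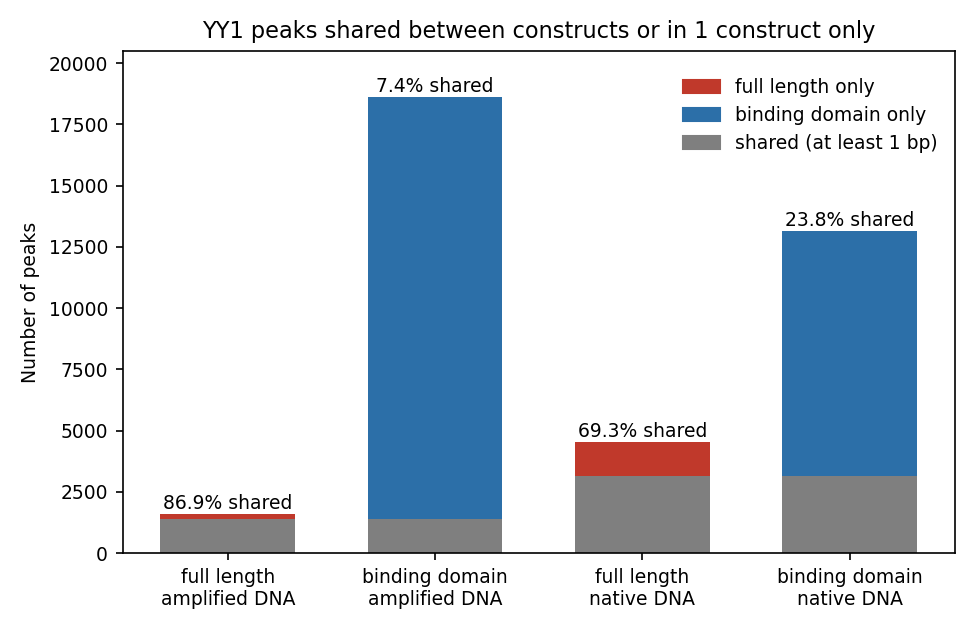
Number of YY1 peaks in each of the 4 lists (bars, starting at 0), split into peaks shared with the other construct on the same DNA and peaks of 1 construct only. The full length lists of 1606 and 4528 peaks are mostly shared, and the binding domain lists of 18619 and 13140 peaks are mostly unshared.

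These shares depended on how much each list covered. The full length peaks covered 311531 bp and the binding domain peaks 4157449 bp on amplified DNA, or 0.187% and 2.49% of the genome size set by the authors. The native full length peaks covered 938026 bp, or 0.563%, and the binding domain peaks 3006662 bp, or 1.80%. When the binding domain list was cut to its strongest peaks so that both lists had the same length, 31.7% (29.5 to 34.0) of full length peaks and 31.2% (29.0 to 33.5) of binding domain peaks were shared on amplified DNA. The native lists at equal length shared 38.6% (37.2 to 40.1) of full length peaks and 38.4% (37.0 to 39.8) of binding domain peaks. The equal lists held 1606 peaks each on amplified and 4528 each on native DNA. At equal length the full length share was the higher one on native DNA, whereas in the whole lists it was the higher one on amplified DNA. Length was matched between constructs and not between kinds of DNA, so the turned order cannot be read as a difference between the kinds. Requiring a fold enrichment of at least 5 in both lists left 41.2% of full length peaks shared on native DNA and 89.1% on amplified DNA, and raised the ratio of peak numbers on native DNA to 0.656.

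Sharing went with the strength of a peak in all 4 lists. In the full length list on amplified DNA, 98.3% (96.4 to 99.2) of the strongest quartile by −log10 q had a binding domain partner, then 94.0%, 88.8% and 66.3% (61.6 to 70.8) down to the weakest quartile. In the binding domain list on amplified DNA the quartiles had 19.2% (18.1 to 20.4), 6.06%, 2.88% and 1.57% (1.25 to 1.97) with a full length partner. The quartiles of the native full length list had 86.9% (84.8 to 88.8), 72.5%, 62.2% and 55.7% (52.7 to 58.5). Those of the binding domain list had 42.9% (41.2 to 44.6), 23.3%, 16.7% and 12.2% (11.2 to 13.4). The height of these shares is bound to list length, since the strongest binding domain quartile on amplified DNA alone held 4655 peaks, against 1606 in the whole full length list. Within each list the share was lower in each weaker quartile.

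**Figure D2:**
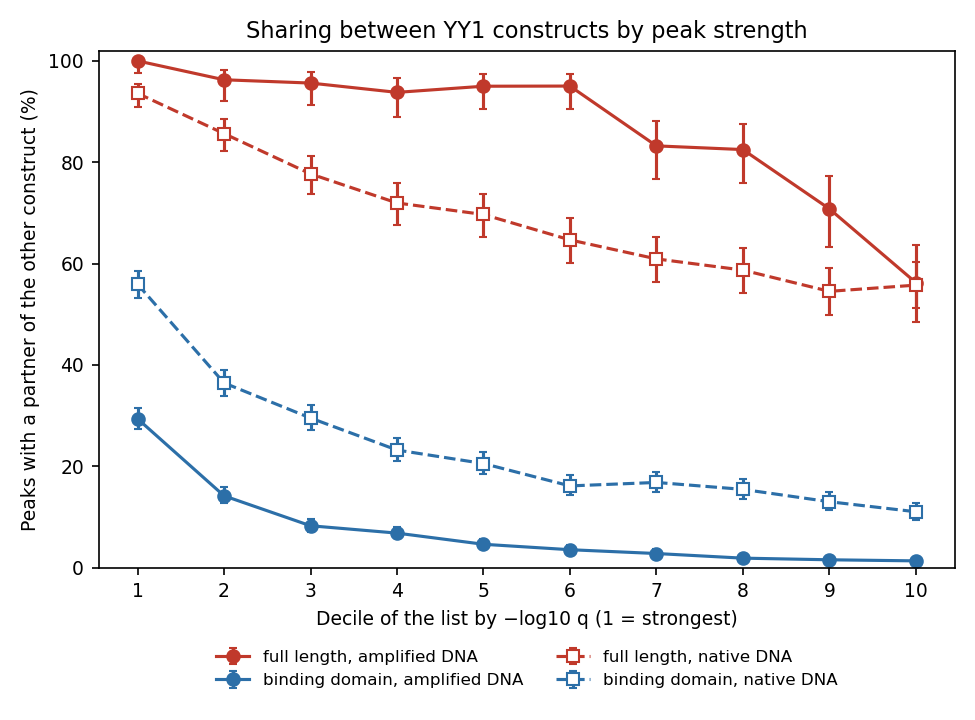
Share of YY1 peaks with a partner of the other construct on the same DNA (vertical axis, %) in deciles of each list by −log10 q (horizontal axis, 1 is the strongest), with 95% Wilson intervals. In the strongest decile 100% of full length and 29.4% of binding domain peaks are shared on amplified DNA, and 93.6% and 55.9% on native DNA.

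The same held at the top of the lists. All 100 strongest full length peaks on amplified DNA were shared, and 99 of 100 on native DNA. Of the 100 strongest binding domain peaks, 57 (47.2 to 66.3) were shared on amplified DNA and 77 (67.8 to 84.2) on native DNA. Ranking by fold enrichment gave 98 shared full length and 51 shared binding domain peaks on amplified DNA, and 95 and 78 on native DNA. The partner lists differed in length here too, with 18619 and 13140 peaks to meet for a full length peak on amplified and native DNA, and 1606 and 4528 for a binding domain peak. The shares in lists of equal length, given above, cannot speak to this difference. Nearly every overlap joined a single peak of each list, so equal lists must give nearly equal shares. Among its 100 strongest peaks, those without a full length partner stood on a higher local background, the fragments expected from the control at the summit. The median background was 17.5 fragments for 43 binding domain only peaks and 11.0 for 57 shared ones on amplified DNA, and 15.0 for 23 and 8.52 for 77 on native DNA. The part of the background in this difference was not tested.

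At the strongest shared sites the summits of the constructs lay within 17 bp of each other. The full length peak of highest −log10 q on amplified DNA lay on contig 13495, positions 247623 to 247883, enriched 34.3-fold and ranked 1 of 1606. The binding domain had a 14.8-fold peak there with rank 43 of 18619, and its summit was 14 bp away. The native lists had, at the same site, a full length peak of 26.5-fold enrichment, rank 4 of 4528, with its summit at the identical base, and a binding domain peak of 7.97-fold enrichment, rank 193 of 13140. No other factor had a peak at this site.

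The site of rank 2 in both full length lists, on contig 13520, positions 6131 to 6459 on amplified DNA, also held peaks of EGR and GLI, zinc finger factors of the same study. Its full length and binding domain peaks were 8.23-fold and 4.78-fold enriched on amplified DNA, with summits at the same base, and 16.6-fold and 7.61-fold on native DNA. Its pileup on amplified DNA was 779 fragments with the full length protein and 421 with the binding domain, over a local background of 93.8 fragments in the full length call. The fold enrichment there was therefore modest although the peak was among the tallest.

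The full length peak of rank 3 on amplified DNA, on contig 13476, positions 52393 to 52673, had the highest fold enrichment of its list, 45.7. The binding domain had a 15.97-fold peak there with its summit 1 bp away, at rank 306 of 18619. Its native full length peak was 17.2-fold enriched, rank 50, and its native binding domain peak 5.39-fold, rank 2688 of 13140. A site near the top of the full length lists could therefore lie far down a binding domain list and still be shared.

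On native DNA the full length list was led by contig 3679, positions 90 to 345, where the full length and binding domain peaks were 19.2-fold and 7.83-fold enriched. On amplified DNA that site had full length and binding domain peaks of 16.1-fold and 13.6-fold enrichment, ranks 9 and 24. The third native site, on contig 5552, positions 91 to 333, had a 26.8-fold full length peak, the highest fold enrichment of that list, and a 10.3-fold binding domain peak. Both native full length peaks end at the last base that any of the 16 lists reaches on their contigs, positions 345 and 333. EGR and SP41 had native peaks at the first of them and GLI at the second.

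Full length only peaks were weak and narrow within their lists. On amplified DNA their median −log10 q was 4.55, against 11.5 for shared full length peaks, and the highest ranked 164 of 1606. The native medians were 6.34 and 9.26, and the highest ranked 96 of 4528. Their median width was 161 bp against 177 bp for shared peaks on amplified DNA, and 167 bp against 192 bp on native DNA. Their median local background was 3.51 fragments against 4.95 on amplified DNA and 3.01 against 4.23 on native DNA. They were also somewhat more frequent on short contigs, defined as those on which no peak of any list ends past position 10000, with 19.0% against 14.0% on amplified and 15.1% against 11.1% on native DNA. A binding domain peak lay within 100 bp of 2 of the 211 on amplified DNA and 13 of the 1389 on native DNA. Within 500 bp the shares were 14.2% and 10.3%, and within 1000 bp 26.1% (20.6 to 32.4) and 19.4% (17.4 to 21.5).

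The strongest full length only peaks on amplified DNA were modest in size. The first lay on contig 13480, positions 127150 to 127308, where 46 fragments stood 13.9-fold over the lowest background of the list, 2.37. Full length YY1 also had a peak there on native DNA, 9.54-fold and rank 671, and the binding domain had none on either DNA. The second, on contig 1664, positions 894 to 1078, was 13.1-fold enriched with rank 186. On native DNA this site had a 12.5-fold full length peak and also a 5.60-fold binding domain peak of rank 5219, so it was full length only on amplified DNA alone. The third, on contig 13485, positions 447441 to 447584, had 7.60-fold enrichment with rank 219 and again a native full length peak, 9.70-fold with rank 264, without the binding domain.

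On native DNA, all 3 of the strongest full length only peaks were shared sites on amplified DNA. On contig 13104, positions 35735 to 35986, the full length protein was 11.5-fold enriched with rank 96, and on amplified DNA the full length and binding domain peaks were 9.06-fold and 7.05-fold enriched. On contig 13204, positions 20625 to 20878, the native full length peak was 12.1-fold enriched with rank 123, and the amplified full length and binding domain peaks were 6.65-fold and 13.9-fold. On contig 13225, positions 88160 to 88381, the native full length peak was 9.00-fold enriched with rank 132, and on amplified DNA the full length peak was 8.52-fold and the binding domain peak 7.85-fold. The binding domain had no native peak at any of these sites, and its amplified peak had a summit within 22 bp of the native full length summit.

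Binding domain only peaks reached the top of the binding domain lists. Their median −log10 q was 11.2 against 26.0 for shared binding domain peaks on amplified DNA and 6.00 against 9.01 on native DNA, and the highest ranked 9 of its list on both kinds of DNA. Both of these were the same site, on contig 12843, positions 5981 to 6225 on amplified and 5990 to 6228 on native DNA. The peak held 319 fragments on amplified DNA, 11.8-fold over a background of 26.1, and 182 fragments on native DNA, 5.53-fold over a background of 32.1. The full length protein had no peak there on either DNA, and neither had any other factor.

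The next binding domain only peaks on amplified DNA met a full length peak on native DNA. On contig 13409, positions 28043 to 28296, the domain was 13.5-fold enriched with rank 12, and the native full length peak was 4.32-fold with rank 994. On contig 13513, positions 200661 to 201225, the domain was 19.3-fold enriched with rank 17, and the native full length peak was 3.42-fold with rank 1688. The binding domain also had a native peak at both, 6.80-fold at the first site and 3.77-fold at the second. The next ones on native DNA lacked the full length protein on both kinds of DNA. They lay on contig 12447, positions 20919 to 21089, enriched 7.17-fold at rank 13, and on contig 12362, positions 15338 to 15533, enriched 5.25-fold at rank 14. On amplified DNA their binding domain peaks ranked 85 and 45. GLI had a peak at the site on contig 12362 on both kinds of DNA.

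Merging the overlapping peaks of the 4 lists gave 23351 YY1 regions. The full length protein had a peak in 4878 of them on at least 1 kind of DNA and the binding domain in 22494. Both had a peak in 4021, which is 82.4% (81.3 to 83.5) of the full length regions and 17.9% (17.4 to 18.4) of the binding domain regions. The full length protein was alone in 857 regions and the binding domain in 18473. Regions with both constructs on both kinds of DNA numbered 959. The binding domain was alone in 8644 regions with peaks on amplified DNA only, in 6273 with peaks on both and in 3556 with peaks on native DNA only. Full length YY1 was alone in 145 regions with peaks on amplified DNA only, in 40 with peaks on both and in 672 with peaks on native DNA only. A further 1781 regions were binding domain only on amplified DNA and shared on native DNA, the most frequent combination that held both constructs.

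**Figure D3:**
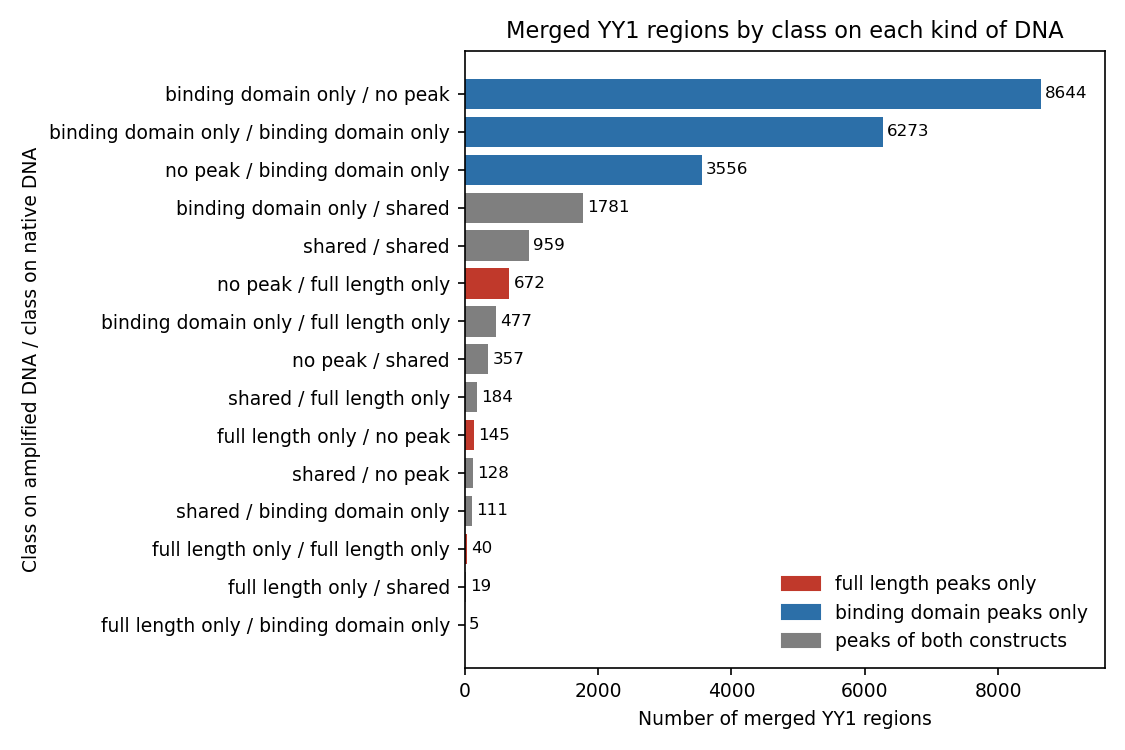
Number of merged YY1 regions (horizontal axis) for each combination of class on amplified DNA and class on native DNA (vertical axis, written as amplified / native). Regions with the binding domain alone fill the 3 longest bars, with 8644, 6273 and 3556 regions, and the full length only / full length only bar holds 40.

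The 959 regions with all 4 peaks leaned to the stronger peaks of each list. Of their peaks, 35.8% (32.8 to 38.9) were in the strongest quartile of the full length list on amplified DNA and 73.7% (70.8 to 76.3) in that of the binding domain. The first share is capped, since that quartile held only 402 peaks and the regions held 972 peaks of the list. Of those 402 peaks, 348 were in these regions, so the 35.8% cannot be set beside the other shares. On native DNA 66.2% (63.2 to 69.1) were in the strongest quartile of the full length list and 55.0% (51.9 to 58.1) in that of the binding domain. The site with the highest −log10 q in its weakest list, among those shared on both kinds of DNA, was on contig 988, positions 366 to 615. Its full length and binding domain peaks were 8.10-fold and 13.2-fold enriched on amplified DNA and 6.55-fold and 7.11-fold on native DNA. The next were on contig 13448, positions 307914 to 308137, where the binding domain reached its highest fold enrichment on amplified DNA, 26.2, beside a full length peak of 8.45-fold, and on contig 13106, positions 40066 to 40579. All 3 also held peaks of other factors.

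The classes recurred unequally on the other kind of DNA. Over all peaks, 82.5% of the full length and 52.9% of the binding domain peaks on amplified DNA met a YY1 peak of either construct on native DNA. In the other direction 77.1% of the full length and 70.2% of the binding domain peaks on native DNA met one on amplified DNA. Shared full length peaks on amplified DNA were shared again on native DNA in 961 of 1395 cases, 68.9% (66.4 to 71.3). Shared full length peaks on native DNA were shared again on amplified DNA in 958 of 3139 cases, 30.5% (28.9 to 32.2), and a further 1795, or 57.2% (55.4 to 58.9), met only the binding domain there.

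In the whole lists few full length only peaks kept their class. Of the 211 on amplified DNA, 40 were full length only again on native DNA, 19.0% (14.2 to 24.8), and 145, or 68.7% (62.2 to 74.6), met no YY1 peak. Of the 1389 on native DNA, 40 were full length only again on amplified DNA, 2.88% (2.12 to 3.90), and 672, or 48.4% (45.8 to 51.0), met no YY1 peak. A binding domain peak on the other DNA was met by 25 of the 211, 11.8% (8.16 to 16.9), and by 677 of the 1389, 48.7% (46.1 to 51.4). Native full length only peaks thus met the binding domain on amplified DNA about as often as they met nothing there. The recurrence from amplified DNA was 30.8% of 107 peaks with −log10 q of at least 5 and 50% of 90 enriched at least 5-fold. It was 44.6% in lists of equal length, where the cut of the binding domain list left 1097 peaks as full length only. From native DNA the recurrence was 17.6% of 2778 full length only peaks in lists of equal length. It was 5.73% with a reciprocal overlap of at least 50%.

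The 40 peaks that were full length only on both kinds of DNA were absent from the top of the lists, but on native DNA their median stood above that of the whole list. Their median −log10 q was 7.20 against 10.4 for all full length peaks on amplified DNA, and 10.8 against 8.19 on native DNA. Their median fold enrichment was 5.34 against 5.05 on amplified and 6.40 against 4.88 on native DNA. Their best rank was 164 in the list on amplified DNA and 159 in that on native DNA, and their median local background was 2.37 and 2.16 fragments, close to the lowest value in each list. On each kind of DNA, 25% of them were on short contigs. Beside the sites on contigs 13480 and 13485 given above, the strongest of them by its weaker peak was on contig 11792, positions 9342 to 9510, 7.06-fold enriched on amplified DNA and 11.0-fold on native DNA. SP41, another zinc finger factor, had a peak at that site on amplified DNA. Another factor had a peak at 6 of the 40 on amplified DNA, or 15%, against 34.8% of all full length peaks there. On native DNA it was 4 of the 40, or 10%, against 24.6%. Among all full length only peaks the shares were 31.8% on amplified and 13.9% on native DNA. The native share of the 40 was thus near that of their class.

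Binding domain only peaks kept their class more often in the whole lists, but not in lists of equal length, where the cut set the classes anew. Of the 17234 on amplified DNA, 6323 were binding domain only on native DNA too, 36.7% (36.0 to 37.4), 2264 met a full length peak there, 13.1% (12.6 to 13.6), and 8644 met no YY1 peak, 50.2% (49.4 to 50.9). Of the 10011 on native DNA, 6331 were binding domain only on amplified DNA, 63.2% (62.3 to 64.2), 115 met a full length peak there, 1.15% (0.958 to 1.38), and 3556 met no YY1 peak, 35.5% (34.6 to 36.5). In lists of equal length, peaks whose binding domain partner was cut became full length only. On amplified DNA 44.6% (41.7 to 47.5) of 1097 full length only and 39.0% (36.2 to 41.9) of 1105 binding domain only peaks recurred. On native DNA it was 17.6% (16.2 to 19.0) of 2778 and 15.4% (14.2 to 16.8) of 2790. Among peaks on amplified DNA enriched at least 5-fold, the share was 50% (39.9 to 60.1) of 90 full length only peaks. It was 14.8% (14.1 to 15.5) of 9122 binding domain only peaks. The order of the classes thus turned on amplified DNA at 5-fold enrichment. At equal length it also turned on both kinds of DNA, but the intervals overlapped. The recurring peaks stood on a higher median background than the class as a whole, 6.02 against 4.78 fragments on amplified DNA and 5.01 against 4.51 on native DNA.

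Each construct was also set against the other on the other kind of DNA. Of the full length peaks on amplified DNA, 68.2% (65.9 to 70.4) overlapped a binding domain peak on native DNA, and of those on native DNA, 75.8% (74.5 to 77.0) overlapped one on amplified DNA. Of the binding domain peaks on amplified DNA, 18.3% (17.8 to 18.9) overlapped a full length peak on native DNA, and of those on native DNA, 8.30% (7.84 to 8.78) overlapped one on amplified DNA. These lists share no control library. Nearly every overlap again joined a single peak of each list. The higher share in the full length lists was thus set by their shorter length and is no separate support. The binding domain shares followed the length of the full length list they were set against, 4528 peaks for the first and 1606 for the second.

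The summits of the constructs were close together. The 1397 overlapping pairs on amplified DNA had summits a median of 13 bp apart (12 to 14, binomial order-statistic interval), and the 3147 pairs on native DNA 17 bp apart (16 to 19). Within 10 bp were 44.4% of the pairs on amplified and 37.1% on native DNA, and within 50 bp 84.3% and 78.3%. The same construct compared between amplified and native DNA gave 12 bp (11 to 14) for 1209 full length pairs and 13 bp (13 to 14) for 9251 binding domain pairs. The distance between constructs on amplified DNA was thus about that of a construct with itself on the other DNA, and on native DNA it was a few bases longer. The pairing of a native full length peak with an amplified binding domain peak gave 14 bp over 3437 pairs, and that of an amplified full length peak with a native binding domain peak 16 bp over 1097 pairs. The full length summit lay inside the binding domain peak in 98.7% of pairs on amplified DNA and 97.8% on native DNA.

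**Figure D4:**
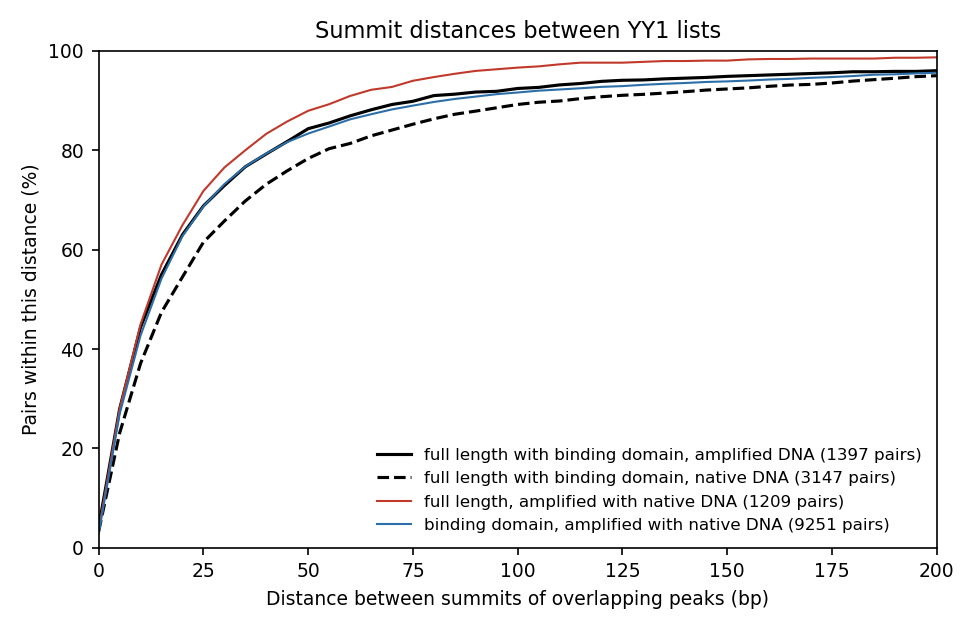
Cumulative share of overlapping YY1 peak pairs (vertical axis, %) whose summits lie within a given distance (horizontal axis, bp, shown to 200). The native pairing of the constructs runs lowest, with 78.3% of pairs within 50 bp, against 84.3% for the amplified pairing and 87.9% for full length and 83.3% for binding domain pairs between kinds of DNA.

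Some pairs had distant summits. Pairs with summits over 100 bp apart were 7.59% on amplified DNA and 10.8% on native DNA. The greatest distance on amplified DNA, 790 bp, was on contig 13441, where a full length peak of 146 bp at positions 242914 to 243059 lay in a binding domain peak of 1064 bp. The binding domain summit of the native peak at that site was 17 bp from this full length summit. The greatest on native DNA, 771 bp, was on contig 12718, positions 25950 to 26546, with a full length peak of 597 bp and a binding domain peak of 848 bp. The widest full length peak on native DNA, 1218 bp at positions 23358 to 24575, lay on the same contig. The widest on amplified DNA, on contig 13518, positions 267182 to 268058, spanned 877 bp. Its full length summits on amplified and native DNA were 42 bp apart, and the binding domain summits on amplified and native DNA were 615 and 672 bp from the amplified full length summit, so the constructs peaked at opposite ends of 1 broad region.

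Full length peaks were narrower than their binding domain partners. The median ratio of widths was 0.783 (0.771 to 0.802, binomial order-statistic interval) on amplified DNA and 0.877 (0.866 to 0.888) on native DNA, with median widths of 177 against 235 bp and 192 against 223 bp. The full length peak was the narrower one in 84.1% of pairs on amplified DNA and 68.5% on native DNA. It lay wholly inside its partner in 64.9% and 38.7% of pairs, and enclosed it in 5.15% and 14.3%. The shortest peaks in a list are as long as the fragment size used in calling, 139 bp in the full length and 144 bp in the binding domain list on amplified DNA, and 138 and 147 bp on native DNA. The difference between these minimum widths is thus 5 and 9 bp. In lists of equal length, which keep the strongest binding domain peaks, the width ratio was 0.722 on amplified and 0.848 on native DNA, and at a fold enrichment of at least 5 in both lists it was 0.844 and 0.929. The width ratio thus moved with the peaks kept and stayed below 1 in these alternatives. The binding domain peaks kept at equal length were wider than the whole list, with medians of 242 against 188 bp on amplified DNA. On native DNA the medians were 208 against 193 bp. The cut itself thus favoured a low ratio, so its value at equal length is no separate check.

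Binding domain peaks stood closer together than full length peaks, but not in lists of equal length. Another peak of the list lay within 1000 bp for 4.17% (3.30 to 5.26) of full length peaks and 28.8% (28.2 to 29.5) of binding domain peaks on amplified DNA. The native shares were 11.2% (10.3 to 12.1) and 23.8% (23.1 to 24.5). When the binding domain list was cut to the length of the full length list, 3.80% (2.97 to 4.85) of its peaks had such a neighbour on amplified DNA and 11.3% (10.4 to 12.3) on native DNA. The widest binding domain peak, 2366 bp on contig 13255, positions 132599 to 134964, met no full length peak on amplified DNA and 2 full length peaks on native DNA. The widest on native DNA, 1589 bp on contig 13363, positions 75935 to 77523, met no full length peak on either DNA.

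Other factors were less frequent at full length only sites than at shared sites on native DNA, whereas on amplified DNA the whole classes of the full length list were close. A peak of NRF, EGR, GLI or SP41 on the same kind of DNA overlapped 34.8% of all full length peaks and 23.2% of all binding domain peaks on amplified DNA. On native DNA the shares were 24.6% and 26.4%. The lists of the other factors had the control library of the YY1 lists on that DNA. On native DNA, 193 full length only peaks met another factor, 13.9% (12.2 to 15.8), against 922 of the shared full length peaks, 29.4% (27.8 to 31.0). On amplified DNA, 67 full length only peaks met one, 31.8% (25.8 to 38.3), against 492 of the shared ones, 35.3% (32.8 to 37.8). Shared peaks were the wider ones, with full length medians of 177 against 161 bp on amplified and 192 against 167 bp on native DNA. In the binding domain lists the medians were 234 against 185 bp and 223 against 186 bp. A wider peak can meet more peaks, and the part of width in the shares of other factors was not tested.

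In the binding domain lists the direction was the same on both kinds of DNA, with a smaller gap on native DNA. On amplified DNA, 22.1% (21.5 to 22.7) of the binding domain only and 37.0% (34.5 to 39.5) of the shared peaks met another factor. On native DNA the shares were 24.97% (24.1 to 25.8) and 30.9% (29.3 to 32.5). Strength moved with these shares. In the strongest quartile on native DNA, 35.4% of binding domain only and 39.9% of shared peaks met another factor, and in the weakest quartile 18.8% and 16.2%. In quartile 2 the shares were 28.1% of binding domain only and 27.4% of shared peaks, and in quartile 3 they were 21.5% and 23.5%. Within quartiles the native gap of the binding domain list thus changed direction, with overlapping intervals in each. It was widest in the strongest quartile, which held 1410 of the 3129 shared peaks. Quartiles match strength only roughly. In the native full length list the shared peaks had the higher share in every quartile, without overlap of the intervals. In the binding domain list on amplified DNA the gap stayed in each quartile. The binding domain only peaks had 30.6%, 24.1%, 18.6% and 16.5%, against 41.7%, 31.6%, 22.4% and 26.0% of the shared peaks. The weaker quartiles held few shared peaks there, 134 in the third and 73 in the weakest, and the intervals of the classes overlapped in both. The native full length list gave, for its full length only peaks, 16.9%, 14.5%, 13.1% and 13.3% from the strongest to the weakest quartile, against 35.7%, 27.8%, 27.0% and 24.3% of the shared peaks. In the amplified full length list the classes were apart in the stronger quartiles, with few full length only peaks there. The strongest quartile had 14.3% (2.57 to 51.3) of 7 full length only and 40.3% of 395 shared peaks, and the second 16.7% (6.68 to 35.9) of 24 and 34.7% of 377. The weakest quartile held 135 of the 211 full length only peaks, with 36.3% against 38.7% of the shared peaks.

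**Figure D5:**
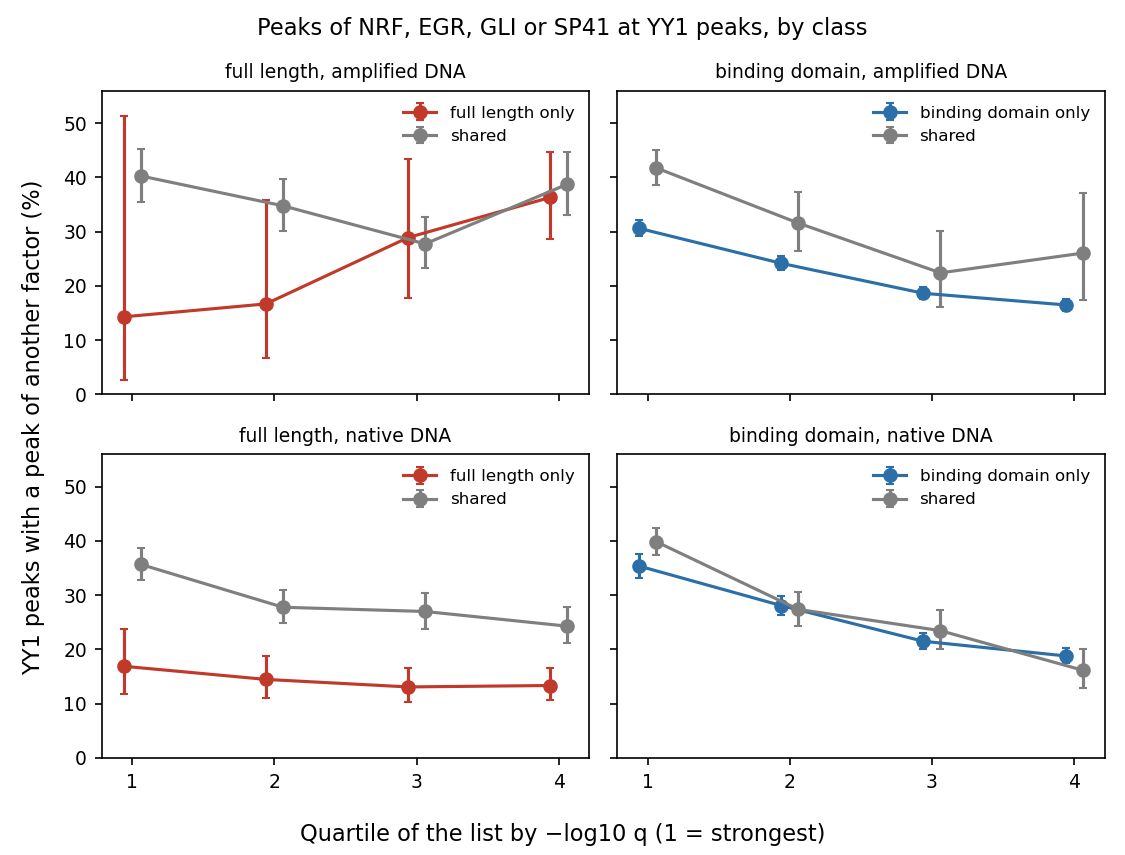
Share of YY1 peaks that overlap a peak of NRF, EGR, GLI or SP41 on the same DNA (vertical axis, %) by quartile of the list (horizontal axis, 1 is the strongest) and class, with 95% Wilson intervals, 1 panel per list. On native DNA the full length only peaks lie between 13.1 and 16.9%, below the shared peaks at 24.3 to 35.7% in every quartile.

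The gap on native DNA was found for each factor. SP41 overlapped 6.48% (5.30 to 7.90) of the full length only peaks and 19.0% (17.7 to 20.4) of the shared full length peaks there. GLI overlapped 2.66% (1.94 to 3.65) and 10.1% (9.09 to 11.2), and EGR 7.13% (5.89 to 8.60) and 12.6% (11.5 to 13.8). NRF, whose lists are the shortest of the series, overlapped 1.01% (0.601 to 1.68) and 2.93% (2.40 to 3.58). On amplified DNA the factors differed in direction. GLI overlapped 14.2% (10.1 to 19.6) of the full length only peaks, 30 of 211, and 6.16% (5.02 to 7.55) of the shared ones, whereas EGR overlapped 3.79% (1.93 to 7.30) and 8.53% (7.18 to 10.1). SP41 had 22.7% (17.6 to 28.9) and 26.7% (24.4 to 29.0), and NRF 8.53% (5.46 to 13.1) and 6.67% (5.47 to 8.10). The GLI peaks at full length only sites were mostly in the weakest quartile of the list, where GLI met 17.8% of 135 full length only and 8.65% of 266 shared peaks.

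The 2 other factors tested in both forms, NRF and SP41, gave other relations between the constructs, and the differences from YY1 were not tested. The number of full length over binding domain peaks was 0.0863 and 0.345 for YY1 on amplified and native DNA, 2.87 and 2.30 for NRF, and 0.780 and 0.617 for SP41. In lists of equal length the full length peaks were shared in 31.7% and 38.6% of cases for YY1 on amplified and native DNA, 60.5% and 84.2% for NRF, and 56.6% and 54.6% for SP41. The equal lists held 1606 and 4528 peaks for YY1, 501 and 335 for NRF, and 12006 and 7341 for SP41. For YY1 and SP41 the binding domain list was cut and every full length peak was kept. For NRF the full length list was cut to its strongest peaks, so its shares at equal length are of unlike peaks. In the whole lists the full length shares were 86.9% and 69.3% for YY1, 23.1% and 39.5% for NRF, and 64.1% and 69.1% for SP41. YY1 was thus lowest of the 3 factors at equal length. In the whole lists it was highest on amplified DNA and about level with SP41 on native DNA. The order depended on list length and, for NRF, on which list was cut. Of the 100 strongest binding domain peaks, 57 and 77 were shared for YY1, 100 and 99 for NRF, and 87 and 88 for SP41. These 100 were drawn from binding domain lists of 18619 and 13140, 501 and 335, and 15399 and 11904 peaks. The full length lists to be met differed in length too, so the shares are not of like peaks. Full length peaks were narrower than their partners for YY1 on both kinds of DNA, with the ratios of 0.783 and 0.877, against 1.26 and 1.10 for NRF and 1.03 and 0.927 for SP41. Of the full length only peaks on native DNA, 48.7% (46.1 to 51.4) met the binding domain on amplified DNA for YY1, 3.44% (2.13 to 5.52) for NRF and 44.7% (42.7 to 46.8) for SP41. The binding domain lists to be met there held 18619, 501 and 15399 peaks, so the low NRF share was met with a much shorter list. Median summit distances were 13 and 17 bp for YY1, 7 and 6 bp for NRF, and 13 and 22 bp for SP41.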

How the data were processed

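Peak lists of DAP-seq (native DNA) and ampDAP-seq (amplified DNA) were analysed, with 1 library per construct and kind of DNA, grouped by sample title. Each list came from its own MACS2 2.1.2 run by the authors, per the file headers, on paired fragments with a q threshold of 0.05 and at most 1 duplicate kept, with the larger of library and control randomly down-sampled and a genome size of 166679601 bp. The empty HaloTag library on the same DNA was the control, per the file headers. Per the submitters' processing notes, the series used MACS2, Bowtie, Bowtie2, BS-Seeker2, fastp and CASAVA 1.8.2, and the aligner and genome build of these libraries are not given in the sources used here. Both YY1 lists on native DNA carry another run letter in their headers than the other lists, with no meaning given. The input names contain the word "merge", so pooling of sequencing runs before calling is possible but not stated.

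Per the file headers, the pileup is a signal of coverage in fragments at the summit. Significance is deposited as −log10 of the p-value and of the q-value. The deposited fold enrichment is a ratio of pileup to local background, taken here with 1 added to both. Positions, widths and summits are deposited in bp, counted from 1. Random down-sampling and the q cutoff decide which weak peaks are listed.

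An overlap of 1 bp or more counted, and YY1 peaks were merged into regions by the same rule. The local background was computed as (pileup + 1)/fold enrichment − 1, and its lowest value, 2.37 and 2.20 fragments for the full length protein and the binding domain on amplified DNA and 2.04 and 2.04 on native DNA, was checked against the genome average of 2.37, 2.19, 2.03 and 2.03 fragments. Named regions were, per kind of DNA, the 3 peaks of highest −log10 q of each class, the 3 strongest regions that recur in each class on both kinds of DNA, the widest peak of each list, and the pair with the greatest summit distance. The factors, classes and comparisons were chosen with earlier results of these data known. No test was run, since there are no replicate libraries. The alternatives tried were thresholds of 5 on −log10 q and of 5 on fold enrichment, a reciprocal overlap of at least 50%, lists of equal length, and the other construct's list on the other DNA. No genome was used here, so no region carries a sequence or gene annotation, and the methylation libraries were not analysed here. On simulated lists 6 of 6 shared counts were recovered, and 8 of 8 counts equalled those of bedtools 2.31.1. Python 3.11.15, numpy 2.4.6, pandas 2.3.3, scipy 1.17.1 and matplotlib 3.10.9 were used.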

Additional observations from a re-analysis of the deposited data

Results flagged for a closer look

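The YY1 constructs went opposite ways between the kinds of DNA in their number of peaks. The log2 ratio of amplified to native DNA was −1.50 for the full length protein, with 1606 against 4528 peaks, and 0.50 for the binding domain, with 18619 against 13140 peaks. With 1 library each, this difference was not tested. The full length library on amplified DNA held more usable fragments than that on native DNA, 2842290 against 2449481, and so did that of the binding domain, with 2538983 against 2306647.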

How the results depend on the processing

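Of 60 alternative values of 14 results, 8 stayed within the counting interval of the reported value and 52 moved outside it. The ratios of peak numbers and of widths, the results that have a direction, stayed below 1 in each alternative run. In lists of equal length the cut kept wider binding domain peaks, so the width ratio below 1 there is no separate check. The order of the kinds of DNA for the full length share turned at equal length and against the other construct on the other DNA. The equal lists held 1606 peaks on amplified and 4528 on native DNA. Length was thus matched between constructs and not between kinds of DNA, so that order cannot be read as a difference between the kinds. The order of the classes for recurrence turned at a fold enrichment of at least 5 on amplified DNA. At equal length it also turned, but with overlapping intervals and with classes set anew by the cut. For values that moved, the cause was not tested. In each pair below the value on amplified DNA comes before that on native DNA.

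With a −log10 q of at least 5, full length peaks were shared in 91.7 and 62.7% and binding domain peaks on amplified DNA in 7.02%. The ratio of peak numbers was 0.0769 and 0.382, the summit distance 11 and 14 bp and the native width ratio 0.897. Full length only peaks on amplified DNA recurred in 30.8% and binding domain only peaks in 30.8 and 70.4%. With a fold enrichment of at least 5, full length peaks were shared in 89.1 and 41.2%, native binding domain peaks in 27.0%, the native ratio of peak numbers was 0.656, the summit distance 10 and 12 bp and the width ratio 0.844 and 0.929. Full length only peaks on amplified DNA recurred in 50% and binding domain only peaks in 14.8 and 58.6%.

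With a reciprocal overlap of at least 50%, full length peaks were shared in 71.5 and 59.2% and binding domain peaks in 6.17 and 20.4%. The native summit distance was 15 bp and the width ratio 0.832 and 0.911. Native full length only peaks recurred in 5.73% and binding domain only peaks in 34.1 and 57.0%. In lists of equal length, full length peaks were shared in 31.7 and 38.6% and binding domain peaks in 31.2 and 38.4%, with a summit distance of 10 and 14 bp and a width ratio of 0.722 and 0.848. Full length only peaks recurred in 44.6 and 17.6% and binding domain only peaks in 39.0 and 15.4%. Against the other construct on the other DNA, full length peaks were shared in 68.2 and 75.8% and binding domain peaks in 18.3 and 8.30%, with a summit distance of 16 and 14 bp and a width ratio of 0.829 and 0.850.

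No paired analysis was possible because each construct and kind of DNA was 1 library, and for the same reason no library was left out. A site missing from a list had no signal past the cutoff, which does not show that it had none. The full length protein and the binding domain were separate preparations, whose amounts and activity are not given in the sources used here, so construct and preparation cannot be told apart.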
